A study of Saccharomyces cerevisiae with 11 samples.

Results

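The 38 genes described here act in yeast meiosis and spore formation. They were taken as a list of names, not from measured values, and are 38 of the 5656 genes that the arrays measure with a probe set annotated to exactly 1 gene. Where a gene had several such probe sets, the brightest was used, as was the case for REC107, MEI4 and DMC1. The list holds 5 regulators, 21 early genes of chromosome pairing and recombination, 9 middle genes of the meiotic divisions and the spore wall, and 3 mid-late or late genes of the outer spore wall. The stages are textbook classes.

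Sporulation is the response of diploid a/alpha yeast cells to starvation for nitrogen without a fermentable carbon source. The transcription factor Ime1 starts it. Together with Ume6, which otherwise represses early genes, Ime1 switches on genes for DNA breakage, pairing and exchange between chromosomes. The kinase Ime2 and then the transcription factor Ndt80 drive middle genes, and the spore wall genes follow. Rim15, a protein kinase held in check by nutrient signalling, is one of the proteins that promote the meeting of Ime1 and Ume6. In haploid cells Rme1 represses IME1.

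All 11 samples came from a Saccharomyces cerevisiae strain that lacks RIM15 (labelled rim15 deletion mutant, IMK313), made in CEN.PK113-7D, which is known as a haploid strain of the a mating type. All cultures were anaerobic and limited by glucose, at pH 5.0 and 30 °C, with a dilution rate of 0.025 per h. The chemostat, where cells leave with the outflow and the rest keep dividing, gave 3 arrays from independent cultures. The retentostat, where a filter holds the cells back so that glucose per cell becomes scarce, gave 2 arrays on each of days 2, 9, 16 and 20, from culture 1 and culture 2. The labels name no other treatment, and wild-type cells were not analysed here, so each comparison is between growth states of cells without RIM15. No source used here tells how many independent deletion clones were made. The RIM15 (YFL033C) probe set gave 0.4 to 13.9 on the 11 arrays.

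Values are probe-set signals on a linear scale, and a signal of 12 was taken as the floor of detection. The median signal of an array ran from 85.3 to 122, and 15.8% to 22.9% of all probe sets lay at or under the floor. On 3 arrays, those of culture 2 on days 9, 16 and 20, the 3'/5' signal ratio of the ACT1 control transcript was 27.0 to 217, against 0.966 to 2.03 on the other 8 arrays. They are called the high-ratio arrays. Each of these days thus has 1 array of each kind, and results are given with and without the 3 arrays where the call differs. A day left with 1 array is assumed to vary like the other groups. Log2 differences of all genes had a median above 0 in the retentostat (0.11, 0.25, 0.35 and 0.36 in the order of days 2, 9, 16 and 20). Quantile scaling gives all arrays the same distribution, so it put these medians near 0 by design (0, 0.03, 0.05 and 0.03). The shift in the median of all genes thus depends on the scaling. In bulk samples, fewer cells with a transcript and less of it per cell cannot be told apart.

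Most early genes lay near the floor, while most middle genes did not. Of the 38 genes, 19 (50.0%) had a median signal over the 11 arrays under 24, 2-fold the floor, against 7.11% of all 5656 genes. These 19 were 15 of the 21 early genes, 1 of 5 regulators (IME4), 1 of 9 middle genes (SMK1) and 2 of the 3 late genes (DIT2 and SPS100). The strand exchange factors MEI5 and MND1 and the break-formation factors MEI4 and REC114 did not exceed the floor on any array, and their highest signals were 4.2, 1.3, 7.0 and 11.9. These 4 were left out of the tests, as were 79 genes in all (1.40%), which left 34. At the other end, 20 of the 38 genes (52.6%) were above the floor on all 11 arrays, against 91.4% of all genes.

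Several more early genes were above the floor on 1 to 4 arrays. SPO11, the protein that cuts DNA to start recombination, gave 0.3 to 8.2 on 10 arrays and 14.7 on the culture 2 array of day 16. The axis protein HOP1 gave 0.7 to 12.6, its kinase MEK1 0.5 to 14.7, and ZIP2, which helps assemble the synaptonemal complex, 0.7 to 13.6. HOP2, the partner of Mnd1, gave 6.2 to 14.5, and SPO13, which keeps sister chromatids together in the first meiotic division, 2.7 to 16.1. DMC1, the meiotic strand exchange protein, gave 6.0 to 17.3, and its other probe set 1.3 to 13.3. The values just above the floor fell largely on retentostat arrays of days 9 to 20. The probe set of RIM15, which these cells lack, gave 13.9 on the culture 1 array of day 9. A signal just above 12 thus need not mean that a transcript was present.

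The number of genes above the floor was 22 to 23 of 38 on the chemostat arrays and 22 to 24 on day 2. It was 25 and 27 on day 9, 27 and 31 on day 16 and 25 and 29 on day 20, with culture 1 given first. On each of these 3 days culture 2, the array with the high ACT1 ratio, had the larger number, and the part of that ratio in the count was not tested. The share of all 5656 genes at or under the floor fell as well, from 4.51% to 5.27% in the chemostat to 3.13% and 3.55% on day 20. The plot of genes above the floor shows 8 to 9 early genes above the floor in the chemostat, 12 and 15 on day 16, and 9 and 13 on day 20. On the day 20 array of culture 1 the number of early genes was within the chemostat range, and 1 more regulator and 1 more late gene than in the chemostat were above the floor. These counts include values no higher than the 13.9 of the deleted RIM15, such as the 12.6 of HOP1 and the 13.6 of ZIP2.

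**Figure D1:**
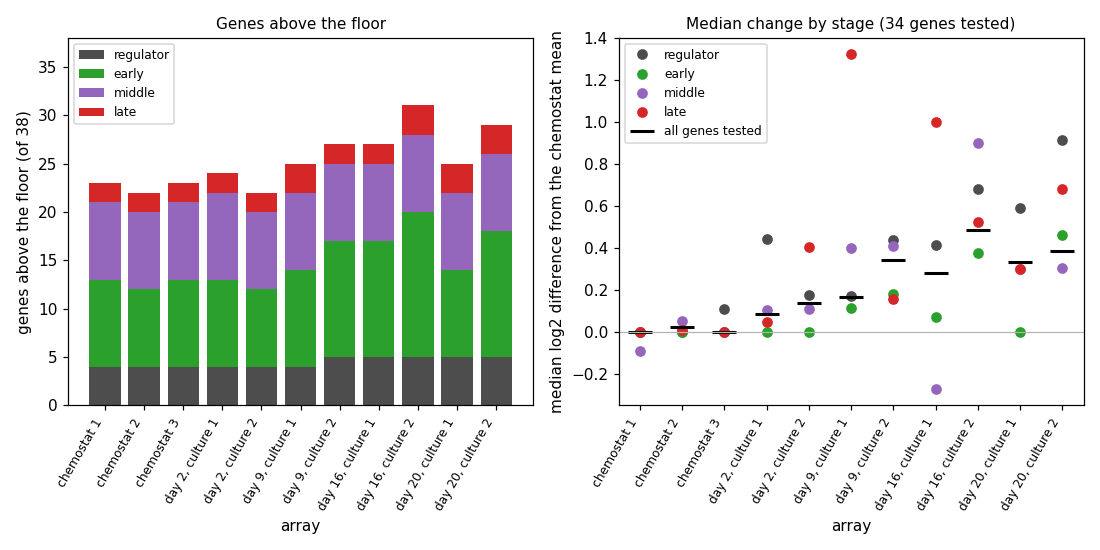
Left, the number of the 38 genes with a signal above 12 on each array, stacked by stage. Right, the median log2 difference from the chemostat mean on each array, after signals under 12 were set to 12. Dots are the tested genes of each stage and black bars all tested genes. The early genes lie at or below the black bar on 7 of the 8 retentostat arrays, and late genes on day 9 differ between the cultures.

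Tested gene by gene against the chemostat, 11 of the 34 genes passed on at least 1 day, 10 higher and 1 lower (32.4%), where 25.4% of all 5577 tested genes did so, 19.9% higher and 5.47% lower. On day 2 none passed, with an unadjusted p under 0.05 for none either, where 0.0179% of all tested genes passed and 8.57% had such a p (limma). On day 9, 6 of 34 (17.6%) passed, 5 higher and 1 lower, against 15.1% of all tested genes (11.4% higher and 3.68% lower). On day 16, 9 of 34 (26.5%) passed, all higher, against 20.9% (16.6% higher and 4.32% lower), and on day 20, 6 of 34 (17.6%), 5 higher and 1 lower, against 13.5% (10.5% higher and 3.01% lower). These shares were close to those of all genes, from 17.6% beside 15.1% to 26.5% beside 20.9%. The moderated F test over the 5 sampling points called 7 of 34 (20.6%), against 11.4% of all genes.

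The median log2 difference of the 34 genes in the order of days 2, 9, 16 and 20 was 0.04, 0.16, 0.35 and 0.46, beside 0.11, 0.25, 0.35 and 0.36 over all tested genes. Counted without a test, with signals under the floor set to it, both retentostat arrays lay above all chemostat arrays for 9 of the 34 on day 2 and below them for 0, where 23.9% and 10.5% of all genes did so. The like counts were 13 and 1 on day 9 (33.2% and 13.7% of all genes), 15 and 1 on day 16 (40.6% and 12.3%) and 18 and 2 on day 20 (49.8% and 14.5%). Those higher include IME4 and SPO13 on day 16 and IME4 and DIT2 on day 20. The chemostat values of these genes were all set to the floor, so they could not lie lower. No conclusion is drawn from their part in the counts. An unadjusted p under 0.05 was reached by 9, 13 and 16 of the 34 on days 9, 16 and 20, against 30.8%, 37.4% and 31.6% of all genes. Between day 20 and day 2 none of the 34 passed, against 0.592% of all genes (0.323% higher and 0.269% lower), and 8 had an unadjusted p under 0.05, against 13.6%. This test did not pair the arrays of the same culture. With culture as a random block 2.67% of all genes were called. In that comparison 14 lay higher and 1 lower without overlap, against 42.1% and 12.7% of all genes. The counts depended on the scaling. Under quantile scaling, as under median scaling, 3 were higher and 1 lower on day 9, 4 higher and 1 lower on day 16, and none higher and 1 lower on day 20. The shares of all genes called dropped too, to 10.3%, 12.5% and 7.57% under quantile scaling and 11.5%, 13.6% and 9.81% under median scaling. Without the 3 high-ratio arrays the counts were 6 and 1, 4 and 0, and 2 and 0, beside 15.8%, 12.7% and 5.40% of all genes.

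Single arrays moved the counts, and those of all genes with them. The day 20 count was 0 or 1 without any 1 chemostat array (4.79% to 5.68% of all genes). It was 2 and 0 without the culture 1 and culture 2 arrays of that day (3.84% and 0.897%), and 10 without either day 16 array (19.2%). The day 16 count was 2 without the culture 2 array of that day (7.28% of all genes) and 4 without chemostat array 3 (9.63%). The day 9 count was 3 without chemostat array 1 or 3 (6.94% and 5.86%) or the culture 1 array of that day (13.3%). The F test called 0 without any 1 chemostat array (2.80% to 3.44% of all genes), 2 and 4 without the culture 1 and culture 2 arrays of day 2 (7.15% and 8.19%) and 2 without either day 20 array (5.95% and 5.25%). Leaving out day 16 of culture 1 gave 12 (19.0%).

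None of the 5 regulators passed the test on any day. IME1 (YJR094C), the initiator, gave 48.0, 89.5 and 85.6 in the chemostat and 103.5 and 98.5 on day 2. It then gave 39.3 and 97.1 on day 9, 48.3 and 111.6 on day 16 and 71.3 and 111.1 on day 20, culture 1 first. The cultures parted after day 2, culture 2 staying above the chemostat range and culture 1 within or below it. The log2 difference on day 20 was 0.31 ± 0.49 (SE, limma adjusted p = 0.686), and its sign turned under quantile scaling (-0.16). NDT80 (YHR124W), the switch for middle genes, stayed between 26.3 and 50.7 on all 11 arrays, with a mean of 34.4 ± 6.24 (SD, n = 3) in the chemostat and 34.4 ± 11.5 (SD, n = 2) on day 20, and its groups overlapped on every day.

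IME2 (YJL106W), the meiotic kinase, gave 14.5, 24.2 and 21.0 in the chemostat, 26.5 and 22.0 on day 2, 25.1 and 32.0 on day 9, 25.9 and 50.7 on day 16 and 29.9 and 36.7 on day 20. From day 9 on both cultures lay above the chemostat range, and the log2 difference on day 20 was 0.77 ± 0.34 (SE, limma adjusted p = 0.154). IME4 (YGL192W), the methyltransferase that marks adenosines in mRNA during meiosis, was under the floor on all chemostat and day 2 arrays, with 4.2 to 10.7. It gave 9.2 and 15.1 on day 9, 17.4 and 25.8 on day 16 and 18.1 and 27.4 on day 20. Its day 20 signal was at least 1.86-fold higher than the floor that stands for the chemostat (limma adjusted p = 0.0531), and it passed under 8 of 20 alternatives. IME4 entered the test through arrays of days 9 to 20 alone. Its chemostat values, all set to the floor in the main fit, have no spread there, so no conclusion is drawn from these tests.

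RIM4 (YHL024W), an RNA-binding protein that holds back translation of middle mRNAs until the divisions, differed most between the cultures among the regulators. It gave 30.1, 27.9 and 31.4 in the chemostat, 98.5 and 59.2 on day 2, 216 and 42.1 on day 9, 137 and 47.8 on day 16 and 132 and 62.7 on day 20. All 8 retentostat arrays lay above all 3 chemostat arrays. Culture 1 exceeded culture 2 by 1.66-fold on day 2, by 5.13-fold on day 9, by 2.87-fold on day 16 and by 2.11-fold on day 20. The log2 difference on day 20 was 1.61 ± 0.67 (SE, limma adjusted p = 0.137). Without the 3 high-ratio arrays, all in culture 2, it was 2.15 and passed (adjusted p = 0.0389), with the culture 1 array alone standing for day 20 and its spread taken from the other groups. The part of that ratio in the gap between cultures was not tested. Of UME6, the partner and repressor plotted beside the regulators, values are given with the other pathway genes.

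**Figure D2:**
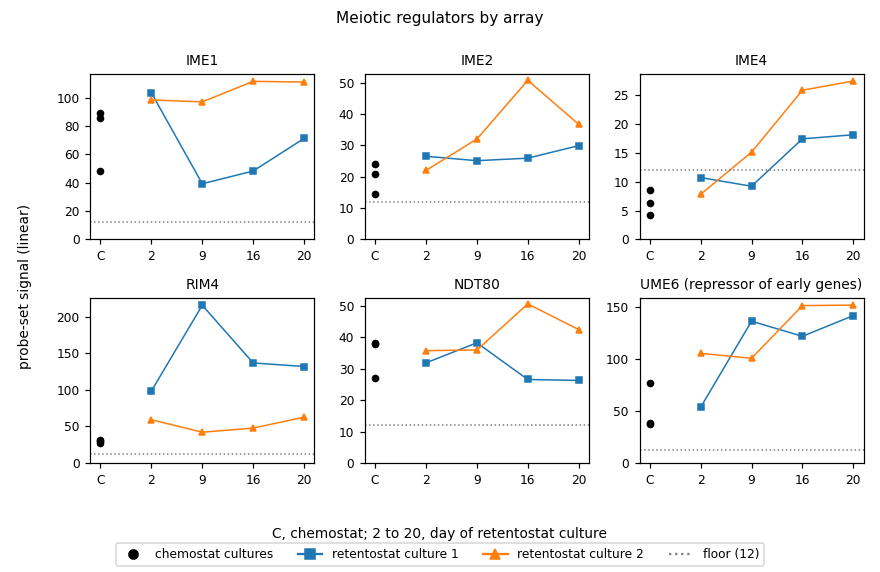
Linear probe-set signal of the 5 regulators and of UME6 in the chemostat (C, 3 cultures) and on days 2, 9, 16 and 20 of the retentostat (1 line per culture); the dotted line is the floor of 12. RIM4 is higher in culture 1, from 98.5 to 216, than in culture 2, from 42.1 to 62.7, while IME1 and IME4 are lower in culture 1 from day 9 on.

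Among the early genes, 6 of the 17 tested passed on at least 1 day (35.3%), all of them higher, beside 19.9% of all genes passing as higher on at least 1 day. They belong to the start of recombination (REC102, REC104), the chromosome axis and synaptonemal complex (RED1, ZIP1) and crossover formation (MSH4, MSH5). The median log2 difference of the 17 was 0.29 on day 16 and 0.24 on day 20, below the 0.35 and 0.36 of all genes. Under the floor many of them could show no fall and no rise that stayed there. SPO11, MEK1, HOP1 and ZIP2 thus had a day 20 difference of 0, though their mean signals were higher there than in the chemostat. These medians therefore do not show that early genes rose less than other genes.

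MSH4 (YFL003C) and MSH5 (YDL154W) encode the partners of a complex that stabilises crossover intermediates. MSH4 gave 37.0, 38.4 and 38.7 in the chemostat, 46.8 and 58.9 on day 2, 81.0 and 92.1 on day 9, 116.6 and 124.2 on day 16 and 66.7 and 102.4 on day 20. Every retentostat array lay above the chemostat range, and MSH4 rose by 1.18 ± 0.24 on the log2 scale on day 9 (SE, limma adjusted p = 0.0129), 1.66 ± 0.24 on day 16 (adjusted p = 0.00284) and 1.12 ± 0.24 on day 20 (adjusted p = 0.0188). MSH5 gave 41.4 to 50.9 in the chemostat, 44.9 and 38.2 on day 2, 48.5 and 66.2 on day 9, 35.7 and 147.9 on day 16 and 145.5 and 167.5 on day 20. The cultures were far apart on day 16 and both high on day 20, when MSH5 was higher by 1.80 ± 0.49 (SE, limma adjusted p = 0.0403). Of these 4 calls, that of MSH4 on day 16 held under all 22 alternatives. That on day 9 ended without the culture 2 array of day 9 (adjusted p = 0.0579). Both day 20 calls ended under quantile and median scaling (adjusted p = 0.0857 to 0.107), without any 1 chemostat array (0.0561 to 0.109) and without the culture 2 array of day 20 (0.212 and 0.259). MSH4's also ended without the 3 high-ratio arrays (0.0700), and MSH5's without either day 2 array (0.0643), without the culture 1 array of day 20 (0.142) or with no filter on dim genes (0.0565). A floor of 50 ended MSH4's on day 20 (0.0510).

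ZIP1 (YDR285W), the central rod of the synaptonemal complex, gave 21.5, 26.1 and 24.3 in the chemostat, 32.0 and 33.7 on day 2, 52.2 and 62.8 on day 9, 44.0 and 60.1 on day 16 and 39.4 and 47.8 on day 20. All retentostat arrays exceeded the chemostat, and the highest values came on day 9 in both cultures. ZIP1 rose by 1.26 ± 0.23 on day 9 (SE, limma adjusted p = 0.00903), 1.11 ± 0.23 on day 16 (adjusted p = 0.0119) and 0.86 ± 0.23 on day 20 (adjusted p = 0.0402) on the log2 scale. RED1 (YLR263W), an axis protein that recruits Hop1 and Mek1, gave 15.3, 15.5 and 5.0 in the chemostat, 23.3 and 5.4 on day 2, 23.7 and 31.0 on day 9, 29.9 and 85.7 on day 16 and 35.9 and 46.2 on day 20. It was above the chemostat on all arrays from day 9 on, highest on the culture 2 array of day 16, where the ACT1 ratio was 217. The day 16 log2 difference of RED1 was 1.84 ± 0.44 (SE, limma adjusted p = 0.0198).

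Those calls of ZIP1 on day 16 and day 20 and of RED1 ended under quantile scaling (adjusted p = 0.0568, 0.380 and 0.0764) and the latter pair under median scaling (0.221 and 0.0528). ZIP1 on day 20 and RED1 ended without the 3 high-ratio arrays (0.0754 and 0.149), with log2 differences of 0.72 and 1.08. ZIP1 on day 20 also ended with the replicate number as a block (0.0527) and without any 1 array of the chemostat, day 2 or day 20 (0.0564 to 0.292). ZIP1 on day 16 ended without the culture 2 array of day 16 (0.0725), and RED1 without that array (0.129) or chemostat array 1 or 3 (0.0520 and 0.0687). With a floor of 50, above most of their signals, the calls of both genes ended (0.235 to 1). ZIP1 on day 20 ended with log2(signal + 16) in place of the floor (0.0910), and RED1 when just the compared groups' arrays were fitted (0.0599).

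REC102 (YLR329W) and REC104 (YHR157W) encode partners of Spo11 in making DNA breaks. REC104 gave 10.5, 16.5 and 16.7 in the chemostat, 14.7 and 20.0 on day 2, 42.8 and 25.8 on day 9, 37.1 and 43.0 on day 16 and 22.8 and 23.6 on day 20. REC104 was higher by 1.16 ± 0.29 on day 9 (SE, limma adjusted p = 0.0261) and by 1.42 ± 0.29 on day 16 (adjusted p = 0.0101) on the log2 scale, and both cultures were lower on day 20 than on day 16. REC102 gave 15.5, 9.6 and 16.0 in the chemostat, 10.7 and 14.5 on day 2, 15.6 and 14.4 on day 9, 25.5 and 45.4 on day 16 and 23.2 and 33.1 on day 20. It was higher on day 16 by 1.24 ± 0.30 (SE, limma adjusted p = 0.0198). Without the 3 high-ratio arrays the day 16 calls of REC102 and REC104 ended (adjusted p = 0.0854 and 0.0558), as they did without the culture 2 array of day 16 alone (0.124 and 0.0665). REC102's ended without any 1 chemostat array (0.0504 to 0.0640). REC104's day 9 call ended without any 1 chemostat array or the culture 1 array of day 9 (0.0560 to 0.111). Median scaling ended all 3 calls (0.0501 to 0.0911), and quantile scaling that of REC102 and of REC104 on day 9 (0.105 and 0.0741). The same 2 calls ended when just the compared groups' arrays were fitted (0.0605 and 0.0747), and REC104's on day 9 with log2(signal + 16) in place of the floor (0.0619).

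The remaining early genes with signals above the floor on most arrays passed on no day. REC8 (YPR007C), the meiotic cohesin subunit, gave 33.2 to 65.8 in the chemostat and 107.1 and 69.8 on day 20, with 26.8 to 71.9 between. REC107 (YJR021C), a break-formation factor whose mRNA needs meiotic splicing, gave 110.6 to 135.7 in the chemostat and 124.9 to 235.5 in the retentostat. Its other probe set gave 6.2 to 70.5, and on days 9, 16 and 20 that probe set was at 7.2, 6.2 and 9.8 in culture 2 against 29.9, 25.7 and 70.5 in culture 1. SPO16 (YHR153C), a synapsis factor, ranged over 20.2 to 45.2 and SPO22 (YIL073C), its partner, over 5.9 to 23.4.

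Among the 9 middle genes, all tested, 4 passed on at least 1 day (44.4%, beside 25.4% of all genes), SPS1, SPO21 and SPR28 higher and SPS2 lower. SPS1 (YDR523C), a kinase needed for prospore membranes to close, gave 53.5, 55.4 and 63.3 in the chemostat, 68.9 and 91.1 on day 2, 136.3 and 168.6 on day 9, 154.6 and 196.7 on day 16 and 108.4 and 159.3 on day 20. Each retentostat array exceeded each chemostat array, and the highest value of each culture was on day 16. SPS1 rose by 1.40 ± 0.26 on day 9 (SE, limma adjusted p = 0.00917), 1.61 ± 0.26 on day 16 (adjusted p = 0.00447) and 1.20 ± 0.26 on day 20 (adjusted p = 0.0190) on the log2 scale. The calls on days 9 and 16 held under all 22 alternatives.

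SPS2 (YDR522C), a cell-wall protein of the middle class, is the next gene on the chromosome to SPS1 and moved the other way. It gave 62.8, 70.9 and 67.3 in the chemostat, 58.0 and 72.2 on day 2, 33.9 and 38.5 on day 9, 40.1 and 51.8 on day 16 and 31.4 and 38.4 on day 20. From day 9 on all arrays lay below the chemostat. SPS2 fell by 0.89 ± 0.23 on day 9 (SE, limma adjusted p = 0.0291) and by 0.95 ± 0.23 on day 20 (adjusted p = 0.0275) on the log2 scale, where 3.68% and 3.01% of all genes were called lower. These SPS2 calls held under quantile and median scaling, in contrast to SPS1 on day 20, which ended under both (adjusted p = 0.0818 and 0.0667).

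SPR28 (YDR218C), a sporulation septin, gave 47.2, 58.8 and 46.5 in the chemostat, 61.3 and 77.1 on day 2, 101.4 and 122.1 on day 9, 104.5 and 149.1 on day 16 and 73.2 and 117.2 on day 20. It exceeded the chemostat on every retentostat array and was higher by 1.14 ± 0.28 on day 9 (SE, limma adjusted p = 0.0265) and 1.30 ± 0.28 on day 16 (adjusted p = 0.0136) on the log2 scale. SPO21 (YOL091W), a part of the spindle pole plaque from which the prospore membrane grows, gave 36.3 to 40.2 in the chemostat, 40.4 and 51.6 on day 2, 54.5 and 74.9 on day 9, 64.2 and 88.4 on day 16 and 57.2 and 72.8 on day 20. It was higher on day 16 by 0.96 ± 0.26 (SE, limma adjusted p = 0.0281). In both genes, as in SPS1, culture 2 lay above culture 1 on every day. The part of the high ACT1 ratio in this on days 9, 16 and 20 was not tested.

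Without the 3 high-ratio arrays, SPS1 on day 20 (adjusted p = 0.0787), SPS2 on day 20 (0.0504), SPR28 on days 9 and 16 (0.0527 and 0.0536) and SPO21 (0.0744) lost their calls. Quantile and median scaling ended SPR28 on day 9 (0.0554 and 0.0581) and SPO21 (0.106 and 0.105). Without any 1 chemostat array the SPS1 call on day 20 (0.0515 to 0.0687), both SPS2 calls (0.0729 to 0.0923) and SPO21 (0.0654 to 0.0898) ended, and so did SPR28 on day 9 without chemostat array 1 or 3 (0.0886 and 0.0926) and on day 16 without array 3 (0.0524). Single arrays of the day tested decided further calls. Without the culture 2 array these were SPS1 on day 20 (0.212), SPS2 on days 9 and 20 (0.0623 and 0.135), SPR28 on days 9 and 16 (0.113 and 0.0918) and SPO21 (0.149). Without the culture 1 array they were SPS2 on days 9 and 20 (0.0877 and 0.166) and SPR28 on day 9 (0.0514). A floor of 50 ended both SPS2 calls (0.110 and 0.111) and SPO21's (0.0819). SPS2 on day 9 also ended with log2(signal + 16) (0.0546), and SPO21 when just the compared groups' arrays were fitted (0.0518).

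Of the other middle genes, SPO19 (YPL130W), a prospore protein, gave 16.4 to 21.7 in the chemostat, 27.9 and 53.5 on day 9, 15.6 and 105.2 on day 16 and 43.3 and 68.3 on day 20. SPS4 (YOR313C) showed a like gap between cultures, with 25.6 and 72.4 on day 9 and 41.1 and 100.4 on day 16, against 37.0 to 68.9 in the chemostat. SPR3 (YGR059W), the partner septin of Spr28, gave 45.7 to 49.2 in the chemostat and 36.9 and 16.3 on day 20, and SPO20 (YMR017W), a SNARE protein for prospore membrane fusion, ranged over 42.9 to 73.9. SMK1 (YPR054W), a MAP kinase of spore wall assembly, exceeded the floor on 1 array, with 18.5 on day 2 in culture 1 and 1.0 to 11.8 on the others.

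Of the 3 late genes, DIT1 (YDR403W) passed. It encodes the first enzyme of the dityrosine layer, the outermost coat of the spore. DIT1 gave 16.4, 14.7 and 12.9 in the chemostat, 15.1 and 25.5 on day 2, 39.8 and 21.6 on day 9, 43.6 and 33.8 on day 16 and 44.8 and 45.0 on day 20. On day 20 the cultures were nearly equal, and all arrays from day 9 on lay above the chemostat. DIT1 was higher by 1.40 ± 0.32 on day 16 (SE, limma adjusted p = 0.0171) and 1.62 ± 0.32 on day 20 (adjusted p = 0.0143) on the log2 scale. Both calls ended under quantile and median scaling (adjusted p = 0.0667 to 0.0931), without the 3 high-ratio arrays (0.0520 and 0.0644), without chemostat array 3 (0.0630 and 0.0559) and without either array of the day tested (0.0531 to 0.130).

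DIT2 (YDR402C), the next enzyme of the dityrosine pathway and the neighbour of DIT1 on the chromosome, lay under the floor on all chemostat and day 2 arrays, with 1.6 to 9.4. It gave 13.7 and 8.9 on day 9, 5.9 and 16.4 on day 16 and 14.8 and 18.5 on day 20, so both cultures exceeded the floor on day 20 alone. SPS100 (YHR139C), a late spore wall protein, gave 14.4 to 19.5 in the chemostat, 24.7 and 22.8 on day 2, 43.0 and 19.2 on day 9, 34.4 and 24.7 on day 16 and 20.4 and 27.6 on day 20. All its retentostat values but the 19.2 lay above the chemostat range, and it passed on no day.

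**Figure D3:**
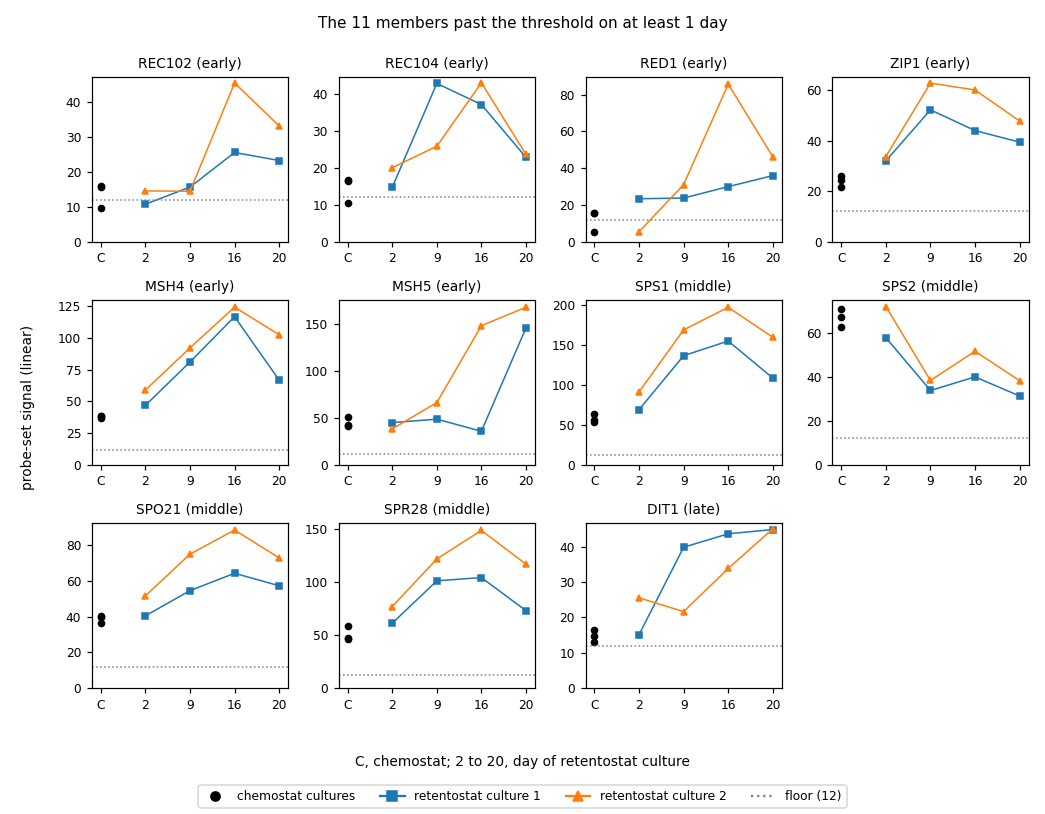
Linear probe-set signal of the 11 genes that passed on at least 1 day, in the chemostat (C, 3 cultures) and on days 2, 9, 16 and 20 (1 line per culture), with the floor of 12 dotted. MSH4 and SPS1 lie above the chemostat on all 8 retentostat arrays, SPS2 lies below it from day 9 on, and MSH5 reached 147.9 on day 16 in culture 2 and 35.7 in culture 1.

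The median differences of the stages were set side by side without a test. Genes at or under the floor in both groups enter them without any difference, which bears most on the early genes. On day 20 the median log2 difference was 0.77 for the 5 regulators, 0.24 for the 17 early genes, 0.27 for the 9 middle genes and 0.46 for the 3 late genes, beside 0.36 for all tested genes. On day 16 the medians were 0.82, 0.29, 0.27 and 0.76, beside 0.35, and on day 9 they were 0.17, 0.09, 0.34 and 0.74, beside 0.25. By array, the middle genes had a median of -0.27 in culture 1 and 0.90 in culture 2 on day 16, and the late genes of 1.32 and 0.16 on day 9. In other cases the cultures were close, as for the middle genes on day 20 (0.30 and 0.30) and on day 9 (0.40 and 0.41). Passing genes made up 0 of 5, 6 of 17, 4 of 9 and 1 of 3 in the order of the stages, and no test between the stages was made.

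**Figure D4:**
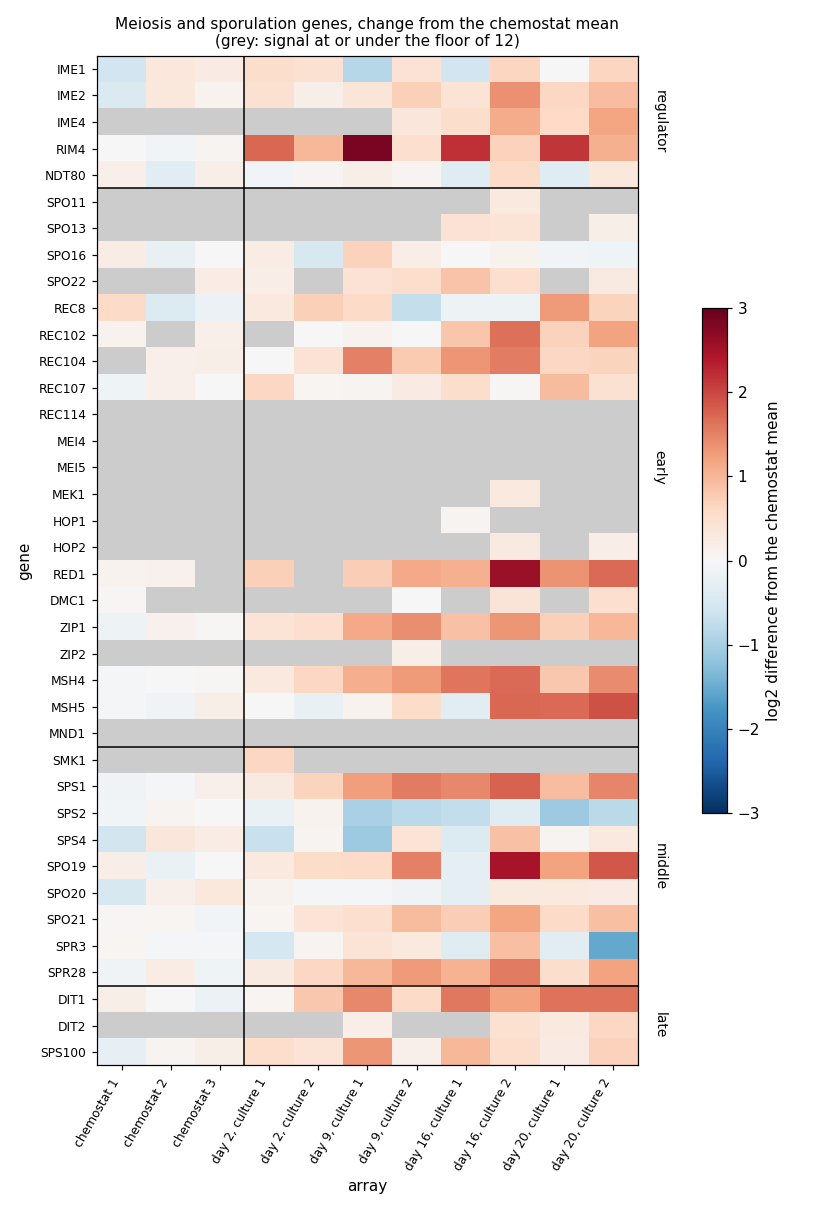
Log2 difference of each of the 38 genes from its chemostat mean on each array, after signals under 12 were set to 12; grey cells are at or under that floor, and where all chemostat cells of a row are grey the colours are lower bounds. RED1 and SPO19 are darkest on the culture 2 array of day 16 and RIM4 on the culture 1 array of day 9, while SPS2 is blue from day 9 on.

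Other genes of the pathway were read from lists chosen by function. Of 21 genes that control entry into meiosis, all tested, none passed on day 2, 1 was lower on day 9, 2 were higher on day 16 and 1 on day 20. These are 4.76%, 9.52% and 4.76%, below the 15.1%, 20.9% and 13.5% of all genes called on those days. Under quantile scaling none of them was higher on day 16 or day 20, and 1 was lower on day 16. The 21 include RIM15, which these cells lack and which was tested only because 1 array gave 13.9. They also include genes not restricted to meiosis, such as CLN3 and MSN2. UME6 (YDR207C) gave 76.4, 37.4 and 38.8 in the chemostat, 53.5 and 105.3 on day 2, 136.2 and 100.6 on day 9, 121.7 and 151.2 on day 16 and 141.6 and 151.7 on day 20. From day 9 on all arrays exceeded the chemostat, and UME6 was higher on day 20 by 1.61 ± 0.39 on the log2 scale (SE, limma adjusted p = 0.0274). That call ended under quantile and median scaling (0.105 and 0.0972), without the 3 high-ratio arrays (0.157), with the replicate number as a block (0.0678), and without chemostat array 2 or 3 or the culture 1 or 2 array of day 20 (0.0828, 0.0930, 0.121 and 0.210).

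RME1 (YGR044C), the haploid repressor of IME1, gave 1248 to 1390 in the chemostat and 1087 to 2154 in the retentostat, and passed on no day. Genes specific to a cells were well above the floor on all arrays, with 557 to 2010 for the pheromone receptor STE2. The alpha pheromone gene MF(ALPHA)1 was also above it throughout, with 138 to 188.5 in the chemostat and 221 to 2008 in the retentostat. Of the other alpha-specific genes read, STE3 gave 65.3 to 97 in the chemostat and 125.9 to 387.8 in the retentostat. SAG1 gave 126.1 to 163.5 and 132.8 to 432, and MF(ALPHA)2 8 to 14.5 and 10 to 55.8. Whether the cultures held cells of 1 mating type was not tested.

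Of 23 further genes listed as early meiotic, 19 could be tested. Not every gene of the list is restricted to early meiosis, MUS81 and SPO14 among them. None passed on day 2, and those higher on days 9, 16 and 20 were 1, 4 and 2, with none lower. These are 5.26%, 21.1% and 10.5% of the tested genes, beside 11.4%, 16.6% and 10.5% of all genes called higher. The day 20 genes were CST9 (YLR394W, also called ZIP3), a synapsis initiation protein, with higher by 1.22 ± 0.35 on the log2 scale (SE, limma adjusted p = 0.0485), and ADY2 (YCR010C), an acetate transporter, with 1.17 ± 0.34 (adjusted p = 0.0479). Both calls ended under most alternatives, 15 of 22 for CST9 and 12 of 20 for ADY2, with an adjusted p of up to 0.343 and 0.380 without the culture 2 array of day 20, and under both other scalings no gene of this list passed on day 20 and 1 on day 16.

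Of 42 further genes listed as middle or late, 41 could be tested, and none was lower on any day. The list includes genes not restricted to sporulation, such as the cyclins CLB1 and CLB5. The numbers higher on days 9, 16 and 20 were 7, 16 and 10. These are 17.1%, 39.0% and 24.4% of the tested genes, beside 11.4%, 16.6% and 10.5% of all genes called higher. Single arrays moved these counts. Without any 1 chemostat array they were 2, 7 to 9 and 3 on days 9, 16 and 20. Of all genes 5.86% to 8.41%, 9.63% to 12% and 4.79% to 5.68% were then called. Without the culture 2 array of day 16 or of day 20, which leaves that day 1 array, fewer of the list and of all genes passed on that day. The median log2 difference of the list on day 20 was 0.75, beside 0.36. SGA1 (YIL099W), the glucoamylase that degrades glycogen during sporulation, gave 56.7 to 66.6 in the chemostat, 133.8 and 103.2 on day 2 and 211.4 and 335.2 on day 20, higher by 2.14 ± 0.28 on the log2 scale (SE, limma adjusted p = 0.00270). GIP1 (YBR045C), a meiotic subunit of protein phosphatase 1, gave 22.1 to 39.2 in the chemostat, 96.3 and 97.0 on day 2 and 108.1 and 131.9 on day 20, higher by 2.08 ± 0.34 on the log2 scale (SE, limma adjusted p = 0.00557). Both were above the chemostat range from day 2 on, as the values by array show.

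SPS18 (YNL204C), a zinc-finger protein of sporulation, gave 16.3 to 37.7 in the chemostat and 142.8 and 141.1 on day 20, higher by 2.46 ± 0.40 on the log2 scale (SE, limma adjusted p = 0.00523). CLB1 (YGR108W), a B-type cyclin of mitotic and meiotic divisions, gave 45.9 to 52.9 and 99.9 and 145.7, a difference of 1.30 ± 0.27 (SE, limma adjusted p = 0.0167). Under quantile scaling the counts of this list were 2 higher and 0 lower, 6 and 1, and 3 and 1 on days 9, 16 and 20. Of all genes 10.3%, 12.5% and 7.57% were called there in either direction. Leaving out the 3 high-ratio arrays leaves 1 array on each of these days. Fewer genes of the list were then higher on each day, and some were lower on day 9. The day 20 calls of SGA1, GIP1 and SPS18 held under both other scalings and ended without the culture 2 array of day 20 (adjusted p = 0.0507, 0.0812 and 0.0721). Those of GIP1 and SPS18 also ended without the 3 arrays (0.0554 and 0.0603). CLB1's ended under both scalings (0.0810 and 0.0735), without the 3 arrays (0.0864), without any 1 chemostat array (0.0503 to 0.0626) and without the culture 2 array of day 20 (0.200).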

How the data were processed

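Transcript levels were measured on 11 one-colour Affymetrix yeast arrays. The authors deposited each intensity as a linear probe-set signal from GCOS 1.2, per the submitters' processing notes. No source used here gives its background or scaling settings. Among 9335 probe sets, 6504 carry 1 gene name, and these cover 5656 genes, all matched to the gene table used for symbols. Signals under 12 were set to 12, log2 values were taken, and genes at or under 12 on all arrays were not tested.

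The test was limma 3.58.1 (R 4.3.3), with lmFit and eBayes on all 11 arrays and a mean for each group. Its p-values were adjusted over 5577 genes by Benjamini-Hochberg, and the threshold was 0.05. Tests are two-sided, with 6 residual and 3.52 prior degrees of freedom. The fit treats arrays as independent, but the same culture code on the labels of all 4 retentostat days shows that same-numbered arrays are 1 culture sampled repeatedly. Between days, the departures of culture 1 from the mean of both cultures correlated at 0.227 to 0.690 across genes, genes not being independent replicates. Chemostat arrays carry codes of their own. P-values measure only the spread between these arrays, and the number of arrays limits precision.

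The genes, lists, tests and alternatives were chosen with earlier results of these data known. Log2 differences, errors and adjusted p-values are given for genes past the threshold in any comparison and for the 5 regulators, and for up to 4 genes per further list with the smallest p on day 20. Their alternatives were chosen after seeing the data. Of those lists, 3 genes had no probe set of their own. The fit was tested on simulated data with known changes. These were put into brighter genes, with independent noise on each array. The simulation thus does not cover genes near the floor or cultures sampled repeatedly. A planned search of promoters for motifs was not run, because no promoter sequences were used here.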

Additional observations from a re-analysis of the deposited data

How the results depend on the processing

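Each result was recomputed under 11 alternative settings and without each of the 11 arrays in turn. Of 21 calls of a gene on a day, 3 held under all of them (MSH4 on day 16, SPS1 on days 9 and 16), and none turned its direction. Quantile scaling, median scaling and leaving out the 3 high-ratio arrays ended 12 calls each, the mean over probe sets and culture as a random block none. The replicate number as a fixed block also joins chemostat arrays 1 and 2 with retentostat cultures 1 and 2, which are separate cultures. With this block 1 of the 21 calls ended, ZIP1 on day 20. The F test count went from 7 to 2, and the share of all genes from 11.4% to 7.15%. Of the further lists, the block took the entry genes from 1, 2 and 1 calls on days 9, 16 and 20 to 0, 1 and 0, the early genes from 1, 4 and 2 to 0, 4 and 1, and the middle and late genes from 7, 16 and 10 to 7, 13 and 8, of which 1 was lower on days 9 and 16. UME6 and ADY2 on day 20 were among the calls that ended.

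The number of genes called on day 9 was 6, and 3 with a floor of 50. On day 16 it was 9, and 5 under quantile scaling, 5 under median scaling, 3 with a floor of 50, 4 with genes of a mean signal of at least 50 and 4 without the 3 arrays. On day 20 it was 6, and 1, 1, 2 and 2 under quantile scaling, median scaling, a floor of 50 and without the 3 arrays, and 14 when just the arrays of both groups entered the fit. Between day 20 and day 2 it was 0, and 1 under either scaling. Of all genes 0.592% were called there, and 0.699% and 0.897% under quantile and median scaling. The F test gave 7, and 3, 3, 3, 2, 2 and 1 under quantile scaling, median scaling, a floor of 50, log2(signal + 16), a mean signal of at least 50 and without the 3 arrays. A floor of 50 leaves 18 of the genes tested and the minimum mean 12. The causes of the other changes were not tested. Of all genes tested, 34.8% were called on day 20 with just the arrays of both groups, against 13.5% in the main fit. The floor of 50 called 15.8%, 20.5% and 13.4% of them on days 9, 16 and 20, and the minimum mean 21.3% on day 16. The F test called 6.85% and 7.53% of all genes under quantile and median scaling. It called 12.2% with the floor of 50, 11.4% with log2(signal + 16) and 11.5% with the minimum mean, against 11.4%.

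Without 1 array at a time the counts ran from 3 to 6 on day 9, 2 to 12 on day 16, 0 to 10 on day 20, 0 to 1 between day 20 and day 2, and 0 to 12 in the F test. The shares of all genes called moved as well. The log2 difference of IME1 on day 20 turned to -0.16 under quantile scaling, -0.13 under median scaling and -0.0069 without the 3 high-ratio arrays. It ran from -0.0069 to 0.63 without 1 array at a time. That of NDT80 (-0.02) turned to 0.060 with the replicate block and ran from -0.37 to 0.32 without 1 array at a time. The number of genes near the floor was 14 with a limit of 12 and 27 with a limit of 50, in place of 19. Values near the floor limit what can be said of the early genes.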
